A study of Homo sapiens with 4 samples.

Results

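Of 5326 genomic regions listed for HNF4A chromatin immunoprecipitation with sequencing (ChIP-seq), 283 regions, or 5.31%, lay closest to a long noncoding RNA (lncRNA) gene recognised by its name. The closest gene is the one the authors list, and the members were taken by the form of its symbol: LINC followed by a digit, an ending of -AS or -IT followed by a digit, a microRNA host gene (MIR to HG) or a small nucleolar RNA host gene (SNHG). The 283 regions lay closest to 221 genes. They comprised 145 regions of 101 LINC genes, 119 regions of 105 antisense genes, 7 regions of 4 intronic transcripts, 9 regions of 8 microRNA host genes and 3 regions of 3 SNHG genes. RefSeq, with its current names, lists 212 of the 221 genes as lncRNA and 2 as antisense RNA. It lists 4 as protein-coding, EHMT1-IT1 (under EHMT1), FAM83H-AS1 (IQANK1), LINC00483 (ANKRD40CL) and LINC00854 (CCDC200), and 3 as transcribed pseudogenes, ABHD11-AS1, LINC01225 and PSMD5-AS1. LncRNAs with other names, such as MALAT1, are not among the 283. The length of the member regions ran from 181 to 5105 bp, median 980 bp, and the median over all regions was 1030 bp.

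The cells were HCCLM3, an established human hepatocellular carcinoma line, and the series asked which genes HNF4A targets at different glucose levels. There were 4 libraries, 1 per group, with no replicates: HNF4A at high glucose, IgG at high glucose, HNF4A at low glucose and IgG at low glucose. IgG is a nonspecific antibody that gives the background. The labels describe stable overexpression lines made by lentivirus with a CMV vector without naming the gene that was overexpressed, and their culture text, the same for all 4 libraries, names a high glucose medium. Over all regions the high glucose libraries held 402237 HNF4A and 249744 IgG reads, and the low glucose libraries 295460 HNF4A and 198683 IgG reads. In the member regions the median was 50 HNF4A reads against 22 IgG reads at high glucose, and 33 HNF4A reads against 16 IgG reads at low glucose.

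HNF4A is a nuclear receptor that binds DNA as a homodimer and controls much of the gene programme of hepatocytes, together with factors such as FOXA2 and CEBPA. LncRNAs are transcripts without a long open reading frame. Some act on the gene beside them, some act elsewhere in the cell, and others are mainly the precursors of microRNAs or small nucleolar RNAs. Many antisense lncRNAs start beside the promoter of a coding gene and run the opposite way, so a region placed closest to one can lie at a promoter that both genes share.

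The microRNAs encoded within the members' host genes are shown because they are the products for which those genes are known. The RefSeq tables (GRCh38.p14) placed mature microRNAs within 6 of the 8 host genes, and the main arms are given 5′ to 3′ with the seed, bases 2 to 8, in capitals. The let-7a and let-7b arms of MIRLET7BHG share 1 seed, and so do the miR-181a and miR-181b arms of MIR181A1HG. let-7 microRNAs are known as repressors of growth genes.
hsa-let-7a-5p: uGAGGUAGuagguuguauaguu
hsa-let-7b-5p: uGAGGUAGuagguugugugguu
hsa-miR-181a-5p: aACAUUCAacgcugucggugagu
hsa-miR-181b-5p: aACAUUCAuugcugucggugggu
hsa-miR-205-5p: uCCUUCAUuccaccggagucug
hsa-miR-137-3p: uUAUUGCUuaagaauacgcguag
hsa-miR-7-5p: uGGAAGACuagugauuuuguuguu
hsa-miR-3976: uAUAGAGAgcaggaagauuaaugu

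HNF4A sites often hold CAAAGTC or the nuclear receptor half-site AAGGTCA, which is not particular to HNF4A. Both strings were searched on both strands of RefSeq promoters, which run from 250 bases before to 50 bases after a gene's start. A promoter was held for 153 of the 221 member genes, among them EHMT1 for EHMT1-IT1 and CCDC200 for LINC00854. CAAAGTC stood in 5 of these 153 (3.27%) and in 3.43% of all 27305 promoters. AAGGTCA stood in 7 of the 153 (4.58%) and in 3.97% of all promoters. The shares among members thus lay near those of promoters in general. The promoters of 3 members that the results below return to are printed because they hold a match, in capitals, on the strand of the gene. LINC00261 (chr20:22578593-22578892, minus strand) and LINC01384 (chr20:22607468-22607767, minus strand) flank FOXA2, and LINC01134 (chr1:3900154-3900453, plus strand) was among the members highest over IgG in the liver list. These coordinates are GRCh38.p14 and all others below are hg19, so the position of each match relative to the HNF4A region was not determined.
LINC00261: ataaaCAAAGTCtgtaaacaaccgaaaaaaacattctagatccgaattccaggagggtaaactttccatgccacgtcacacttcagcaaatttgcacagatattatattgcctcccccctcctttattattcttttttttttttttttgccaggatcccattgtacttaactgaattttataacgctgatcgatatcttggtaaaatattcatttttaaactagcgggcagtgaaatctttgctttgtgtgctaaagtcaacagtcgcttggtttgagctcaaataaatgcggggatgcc
LINC01384: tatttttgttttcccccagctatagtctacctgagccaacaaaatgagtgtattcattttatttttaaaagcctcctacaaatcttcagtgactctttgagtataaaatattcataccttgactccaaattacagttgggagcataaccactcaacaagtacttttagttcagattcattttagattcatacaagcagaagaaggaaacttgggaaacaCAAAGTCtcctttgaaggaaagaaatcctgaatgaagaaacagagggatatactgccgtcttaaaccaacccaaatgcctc
LINC01134: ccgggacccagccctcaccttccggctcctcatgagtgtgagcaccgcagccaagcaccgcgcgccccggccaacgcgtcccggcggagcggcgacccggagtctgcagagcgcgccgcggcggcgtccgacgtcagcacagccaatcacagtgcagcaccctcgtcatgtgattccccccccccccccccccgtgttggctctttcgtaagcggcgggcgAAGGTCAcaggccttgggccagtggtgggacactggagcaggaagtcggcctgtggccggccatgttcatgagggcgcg

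HNF4A stood above IgG at most lncRNA regions. Every ratio is a log2 ratio of scaled reads, where scaling divides by the relative size of the library, and the range in parentheses is its exact 95% interval, which covers counting error. The median ratio of HNF4A over IgG over the 283 regions was 1.14 at high glucose, against 0.79 over all 5326 regions. At low glucose it was 1.07, against 0.94. HNF4A was above IgG in 257 of the 283 regions (90.8%) at high glucose, against 84.2% of all regions. At low glucose it was above in 257 again, against 91.5% of all regions. In 243 members (85.9%) it was above in both, against 79.7% of all regions, and in 12 (4.24%) it was below in both, against 4.06%. The members' share above IgG thus lay near the background at low glucose.

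Of the 283, 154 regions (54.4%) were at least 2-fold higher in HNF4A than in IgG at high glucose, against 41.6% of all regions. At low glucose 152 (53.7%) were, against 46.8%. With the median of all regions taken as 0, 65 members (23.0%) were 2-fold higher at high glucose, against 17.9% of all regions. Lower there were 17 (6.01%), against 9.31%. At low glucose 40 (14.1%) were higher, against 13.4%, and 22 were lower. The count of 22 stands without its share of all regions, so it is not read as a result about the members. The excess of 2-fold higher members over all regions was then 5.02 percentage points at high glucose, against 12.8 without centring. At low glucose it was 0.766, against 6.88. In both conditions 109 member regions (38.5%) passed 2-fold without centring, against 31.4% of all regions. The high glucose ratio alone passed in 45 (15.9%), against 10.3%, the low glucose ratio alone in 43 (15.2%), against 15.5%, and neither in 86 (30.4%), against 42.9%. At least 2-fold lower were 2 regions at high glucose, ELMO1-AS1 and LINC00152, against a background of 1.05%. At low glucose 2 were as well, LINC01523 and 1 region of LINC00273, against 0.488%.

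The HNF4A and IgG reads were set against each other by an exact binomial test. This test, Benjamini-Hochberg adjusted over 5326 regions, compares libraries and not conditions. Reads of these libraries may have entered the choice of the regions, so its calls may not be independent of that choice. The test called 187 members higher at high glucose, against 52.3% of all regions, and 156 at low glucose, against 51.0%. The authors' deposited table gave no FDR under 0.05 for any region. The authors' deposited p-value was under 0.05, with HNF4A the higher, for 18 members at high glucose (background 4.96%) and 5 at low glucose (background 3.04%). At high glucose the lowest were those of SLC25A5-AS1, LINC01391 and LINC00936.

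**Figure D1:**
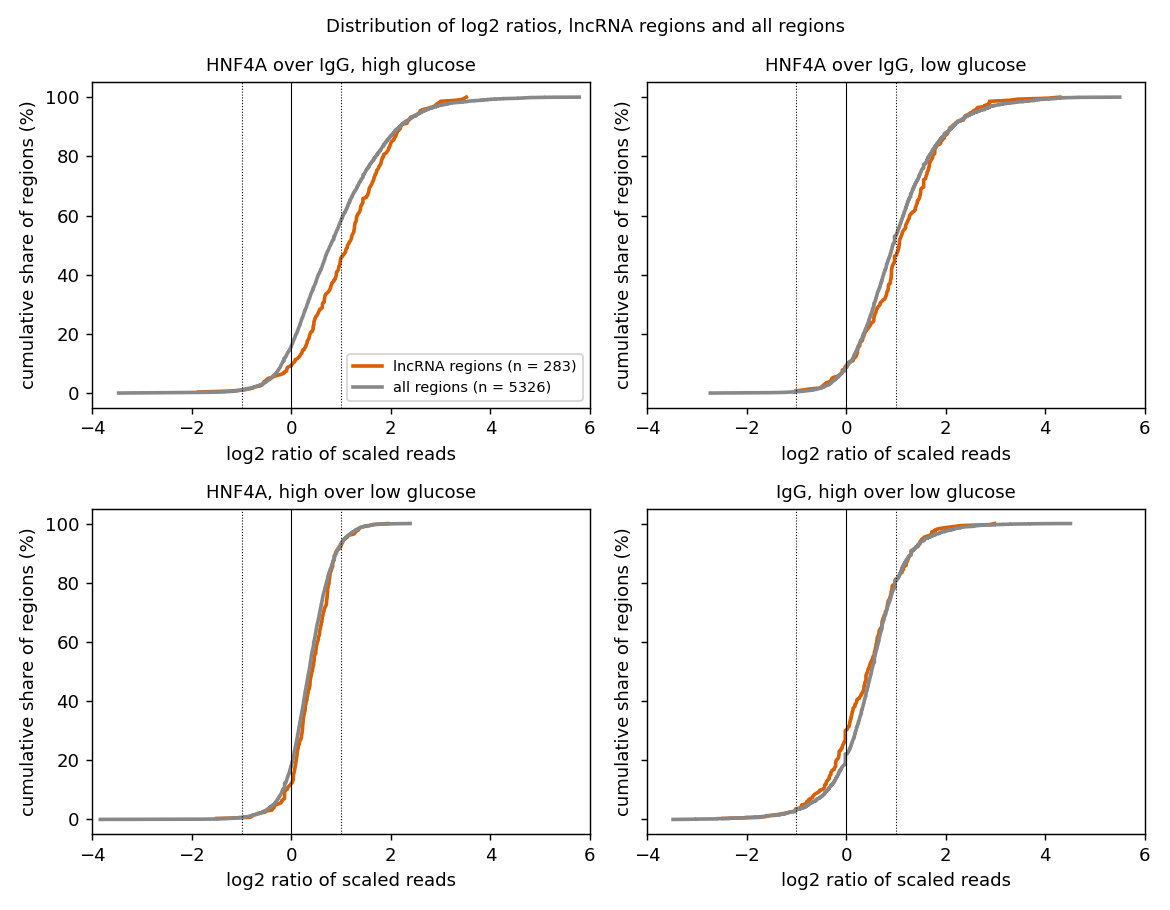
Cumulative share of regions (y axis, percent) by log2 ratio (x axis) for the 283 lncRNA regions (orange) and all 5326 regions (grey), in 4 comparisons. The lncRNA curve lies to the right of the grey curve for HNF4A over IgG at high glucose (medians 1.14 and 0.79). At low glucose the medians are 1.07 and 0.94. For high over low glucose they are 0.43 and 0.36 in HNF4A, and 0.44 and 0.51 in IgG. In the IgG panel 70.0% of the lncRNA regions lie above 0, against 77.9% of all regions.

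Fewer reads went with higher ratios. All regions were split by reads in the pair of libraries into a low, a middle and a high set of near equal size. In the low set at high glucose, up to 59 reads, 106 members had a median of 1.52 and 1812 regions a median of 1.20. In the middle set the medians were 1.06 over 97 members and 0.82 over 1763 regions. In the high set they were 0.65 over 80 members and 0.52 over 1751 regions. At low glucose the corresponding medians were 1.62 and 1.37, 1.07 and 0.94, and 0.59 and 0.66. The members' median was therefore above that of all regions in each set at high glucose, and below it in the high set at low glucose.

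**Figure D2:**
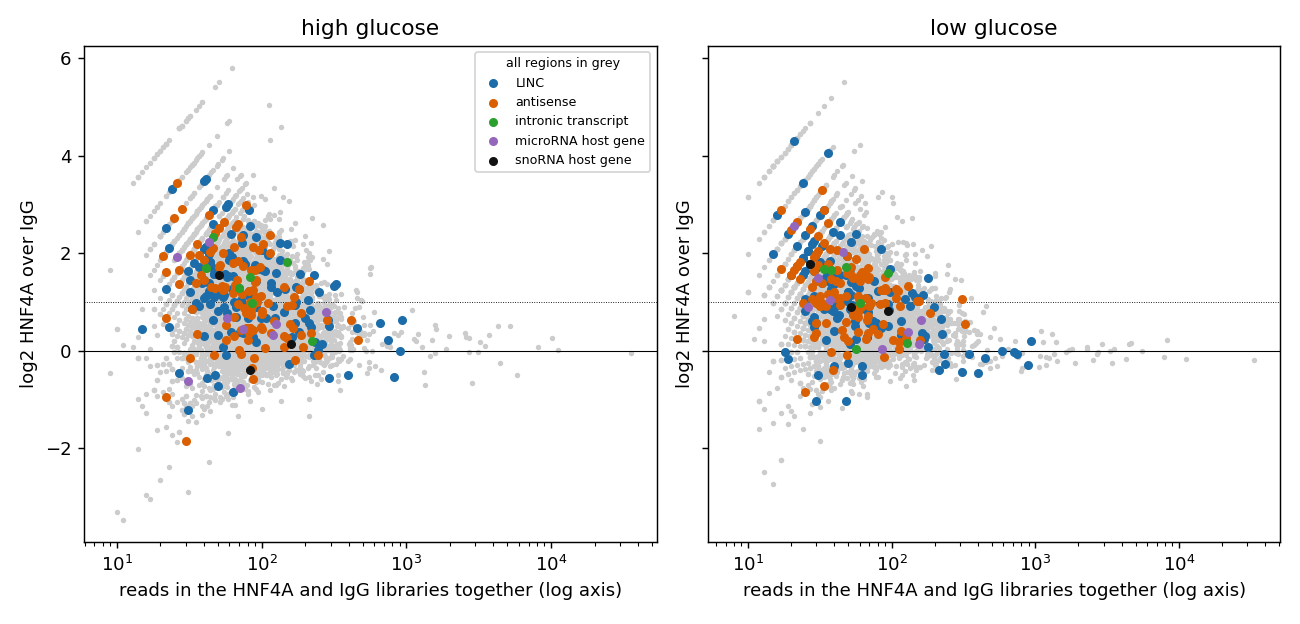
Log2 ratio of HNF4A over IgG (y axis) against reads in the HNF4A and IgG libraries together (x axis, log scale), at high glucose on the left and low glucose on the right, with members coloured by class and all regions in grey. The highest ratios lie among regions with few reads, and the regions of LINC01393, LINC00854 and LINC00293, on the right, lie within 1 unit of 0.

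By class, LINC regions had a median ratio of 1.19 at high and 1.06 at low glucose. Antisense regions had 1.13 and 1.08. The 7 intronic transcript regions had 1.51 and 1.60. The 9 microRNA host regions had 0.54 and 0.89, and the 3 SNHG regions 0.13 and 0.89. At least 2-fold higher at high glucose were 84 of 145 LINC regions (57.9%), 62 of 119 antisense regions (52.1%), 5 of 7 intronic transcript regions, 2 of 9 microRNA host regions and 1 of 3 SNHG regions. At low glucose 75 LINC regions (51.7%) and 68 antisense regions (57.1%) were. LINC and antisense regions thus had near-equal medians, in opposite order in the 2 conditions, and no difference between classes was tested. The last 3 classes are too small for more than a list of values.

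Among microRNA host genes, MIR3976HG and MIR181A1HG stood highest at high glucose. At low glucose MIR181A1HG stood highest, and MIRLET7BHG, given below, lay above MIR3976HG. MIR181A1HG (chr1:198898173-198898735) had 21 HNF4A and 5 IgG reads at high glucose, and 18 HNF4A and 3 IgG reads at low glucose. Its ratios were 1.92 (0.48 to 3.69) and 2.56 (0.78 to 4.96). MIR3976HG had 36 HNF4A and 7 IgG reads at high glucose and 23 and 8 at low glucose, with ratios of 2.22 and 1.5. HNF4A was thus above IgG in both conditions at MIR181A1HG and MIR3976HG.

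MIR22HG, host of miR-22, a microRNA that is abundant in liver, had the most HNF4A reads of this class. Its region (chr17:1617639-1620889) held 182 HNF4A and 95 IgG reads at high glucose, and 98 HNF4A and 62 IgG reads at low glucose. The ratios were 0.79 (0.43 to 1.17) and 0.63 (0.16 to 1.12), and the binomial test called both (adjusted p = 0.018 at low glucose). MIRLET7BHG held 37 HNF4A reads in each condition, against 21 IgG reads at high and 9 at low glucose. Its ratio was 0.67 (-0.14 to 1.52) at high glucose. At low glucose it was 2.01 (0.94 to 3.25), while the HNF4A reads themselves were equal.

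MIR205HG, whose microRNA marks squamous and basal epithelia, had ratios of 0.44 and 1.03. MIR7-3HG and MIR137HG, both known from neurons and endocrine cells, were below IgG at high glucose, at -0.77 (-1.51 to -0.05) and -0.62 (-1.77 to 0.49). MIR7-3HG held 28 HNF4A and 43 IgG reads there, and 44 and 42 at low glucose. The 2 regions of MIR663AHG lay between 0.14 and 0.54 in both conditions, with all 4 intervals reaching below 0.

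The SNHG genes carry small nucleolar RNAs in their introns. SNHG8 had 39 HNF4A and 12 IgG reads at high glucose and 21 and 6 at low glucose, with ratios of 1.55 (0.59 to 2.62) and 1.78 (0.42 to 3.38). SNHG6 had 87 and 72, and 61 and 34, with ratios of 0.13 (-0.34 to 0.60) and 0.82 (0.19 to 1.47). SNHG15 had 38 and 45, and 34 and 18, with ratios of -0.39 (-1.05 to 0.27) and 0.89 (0.03 to 1.80). In all 3 the IgG library had more reads at high than at low glucose, and the HNF4A library changed less.

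Intronic transcripts come from within the introns of a coding gene. CACNA1C-IT3, in a calcium channel gene, had ratios of 2.33 (1.15 to 3.74) and 1.28 (0.49 to 2.12) at high glucose in its 2 regions, and 1.66 and 1.67 at low glucose. EHMT1-IT1, which RefSeq now holds under the histone methyltransferase gene EHMT1 itself, had 120 HNF4A and 31 IgG reads at high glucose and 71 and 23 at low glucose, with ratios of 1.81 (1.23 to 2.43) and 1.60 (0.90 to 2.35). FTO-IT1, in the RNA demethylase gene FTO, had ratios of 1.68 and 1.72. The 3 regions of ASAP1-IT1 spread from 0.19 to 1.51 at high glucose and from 0.02 to 0.97 at low glucose.

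Single regions reached the highest ratios with few IgG reads. At high glucose, LINC01085 (chr4:13908846-13909622) had 38 HNF4A against 3 IgG reads, and 21 against 5 at low glucose. Its ratios were 3.52 (1.86 to 5.86) and 2.04 (0.60 to 3.81). LINC01006 followed with 37 against 3 reads and 3.48 (1.82 to 5.82), and 1.61 at low glucose. The next were SMIM2-AS1 with 3.44 (24 against 2 reads), LINC01108 with 3.31 (22 against 2), a region of LINC00824 with 3.00 (53 against 6) and a region of SLC25A5-AS1 with 2.98 (70 against 8). Their intervals overlap, so the order of these members is not resolved by the reads.

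At low glucose the highest were LINC01364 with 4.30 (1.65 to 9.67), from 20 HNF4A reads and 1 IgG read, and LINC00244 with 4.06 (2.10 to 7.16), from 34 against 2 reads. A listed 1 read is the lowest value in the tables and may stand for none. LINC00589 had 3.43 (22 against 2), CCND2-AS1 3.30 (30 against 3), and LINC01358 and HLX-AS1 2.88 each (30 against 4). HLX-AS1, beside the homeobox gene HLX, was also at 2.63 (1.48 to 4.02) at high glucose, from 48 against 7 reads. Between the HNF4A libraries, high over low glucose, the log2 ratio was -0.21 (-1.20 to 0.77) in LINC01364 and above 0 in the other 5.

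Over both conditions, 12 member regions had ratios above 2 in each, a cut chosen after the values were seen. They make 4.24% of the members, and 269 of all regions (5.05%) passed the same cut. The deepest of them was the LINC01391 region at chr3:138581349-138582813, where 126 HNF4A and 25 IgG reads lay at high glucose, and 69 and 16 at low glucose. Its ratios were 2.19 (1.56 to 2.87) and 2.08 (1.28 to 2.97), called by the exact binomial test with adjusted p = 2.1e-13 and 3.6e-07. The LINC00936 region at chr12:90361639-90362622 had 73 and 9 reads, and 38 and 6, with 2.87 (1.87 to 4.06) and 2.64 (1.38 to 4.17).

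The lowest members at high glucose were ELMO1-AS1 at -1.86 (-3.33 to -0.60), from 7 HNF4A against 23 IgG reads, and LINC00152 at -1.22 (-2.47 to -0.07), from 10 against 21. SLIT1-AS1 (-0.95), a region of LINC00273 (-0.85), MIR7-3HG (-0.77) and LINC00494 (-0.73) followed. ELMO1-AS1 had 18 HNF4A against 12 IgG reads at low glucose, a ratio of 0.56 (-0.58 to 1.75). The binomial test called 5 of the 283 members lower at high glucose, against 85 of all 5326 regions. They were ELMO1-AS1, 1 region of LINC00273, 2 of LINC00854 and 1 of LINC01393. At low glucose the test called 4, against 31 of all 5326 regions: LINC00293, LINC01523 and 2 regions of LINC01393.

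**Figure D3:**
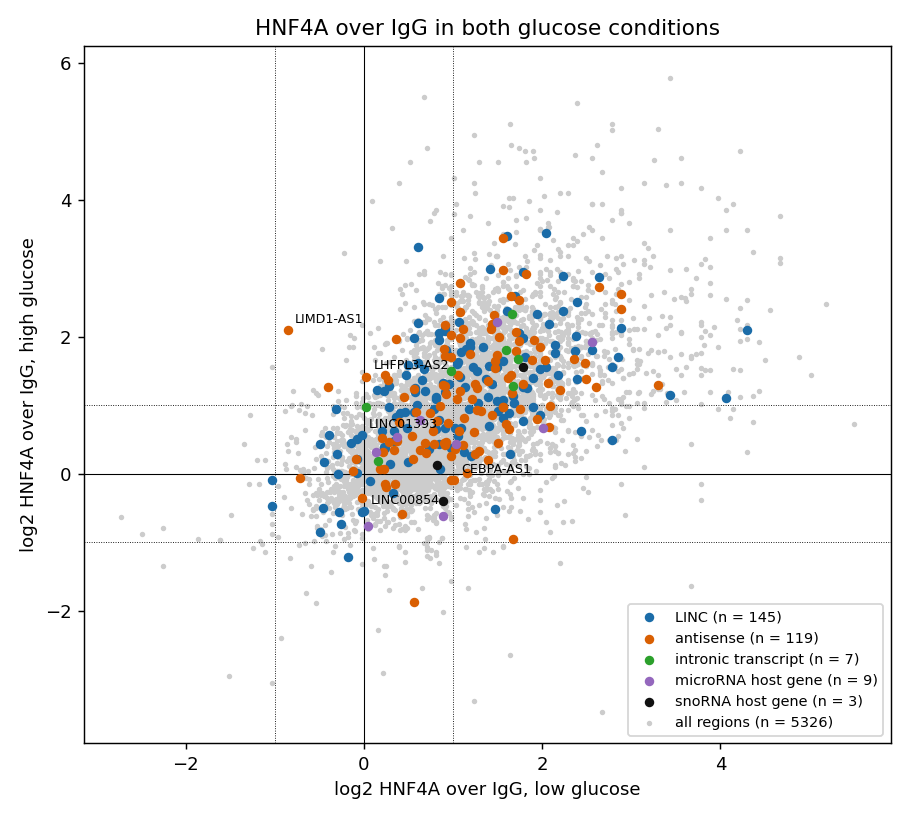
Log2 HNF4A over IgG at high glucose (y axis) against low glucose (x axis) for each member region, coloured by class, over all 5326 regions in grey. Most members lie in the upper right part, and the named points are the 5 members whose ratio differed between the conditions by the exact conditional test.

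Genes nearest to several regions showed how far neighbouring regions agree in level. Of the 221 genes, 12 had 3 or more regions, 48 regions in all. The median over these 48 was 1.04 at high and 0.76 at low glucose, and over the other 235 members 1.16 and 1.11. The 3 regions of LINC00313 (1.39 to 1.91 at high glucose, 1.20 to 2.39 at low glucose) were at least 2-fold above IgG in both conditions. At the other end, none of the 4 regions of LINC00273 and none of the 8 of LINC01393 reached 2-fold in either.

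LINC01393 had the most regions and the most reads. Its 8 regions lay between chr7:114663187 and chr7:115060936 and held 130 to 594 HNF4A reads against 104 to 347 IgG reads at high glucose, and 127 to 505 against 99 to 431 at low glucose. The ratios ran from -0.49 to 0.63 at high glucose and from -0.46 to 0.33 at low glucose. HNF4A was above IgG in 7 of 8 regions at high glucose and in 2 of 8 at low glucose. Reads were high with either antibody.

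LINC00656, which lies on chromosome 20 beyond FOXA2 and its flanking lncRNAs, had 5 regions. Their ratios ran from 0.90 to 1.56 at high glucose and from 0.28 to 1.49 at low glucose. Its region at chr20:23135573-23138000 had 176 HNF4A and 54 IgG reads at high glucose, and 132 and 46 at low glucose, with ratios of 1.56 (1.11 to 2.03) and 1.49 (1.0 to 2.01). The 5 regions of LINC00963 ran from 0.17 to 2.09 at high glucose and from 0.49 to 1.68 at low glucose.

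The 4 regions of LINC00936 spread from 0.37 to 2.87 at high glucose and from 0.23 to 2.64 at low glucose. All 4 regions of LINC00824, which lies on chromosome 8 beyond MYC and PVT1, passed 2-fold at high glucose (1.04 to 3.00) and 2 did at low glucose (0.57 to 1.41). The 3 regions of LINC01132 had 1.19 to 1.95 at high glucose and 0.57 to 2.14 at low glucose. SLC25A5-AS1 had 0.30 to 2.98 and 1.24 to 1.65.

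**Figure D4:**
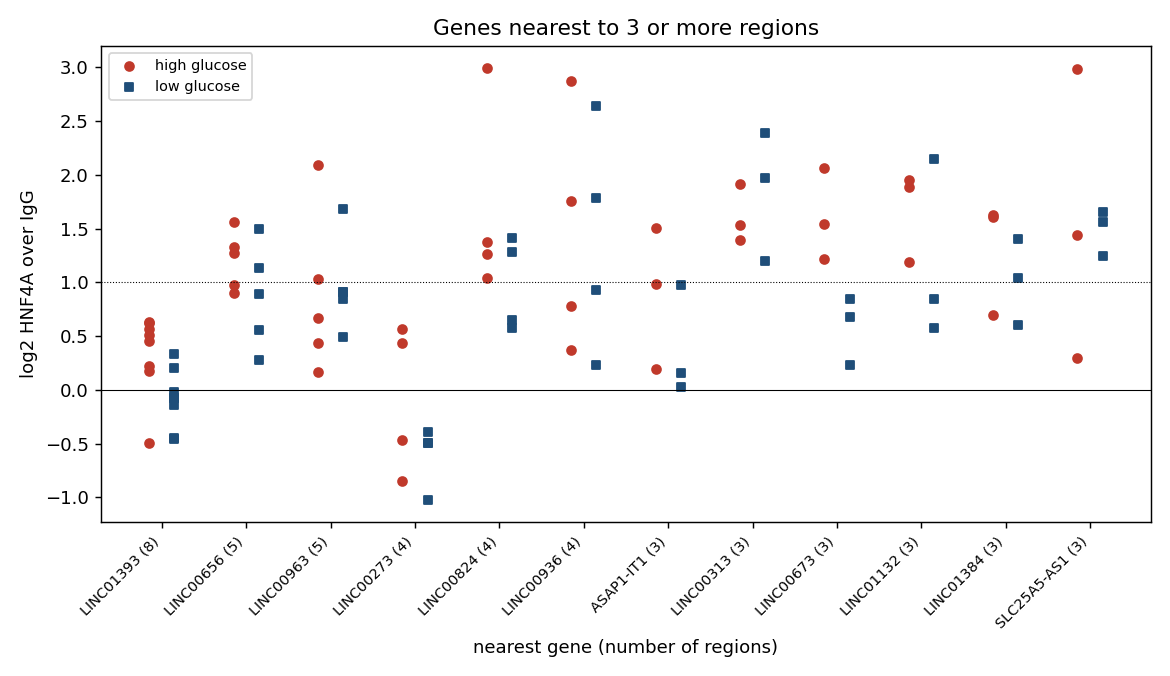
Log2 HNF4A over IgG (y axis) of every region of the 12 genes nearest to 3 or more regions (x axis, number of regions in parentheses), at high glucose (red circles) and low glucose (blue squares). LINC01393 lies around 0 in both conditions, LINC00273 lies on both sides of 0 at high glucose and below it at low glucose, and LINC00313 lies above 1 in both.

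Of a list of 48 lncRNAs known from liver or liver cancer, 11 genes had a region and 7 of those are members. LINC01134 had the highest ratio of the 7 at high glucose. Its region (chr1:3816458-3817816) had 74 HNF4A and 21 IgG reads at high glucose, and 49 and 17 at low glucose, with ratios of 1.67 (0.96 to 2.44) and 1.5 (0.68 to 2.39). LINC00261 is a lncRNA of endoderm and liver whose gene neighbours FOXA2. Its region (chr20:22503795-22506353) had 128 HNF4A and 73 IgG reads at high glucose, and 100 and 46 at low glucose. The ratios were 0.66 (0.24 to 1.1) and 1.09 (0.58 to 1.63), both called by the exact binomial test (adjusted p = 0.0049 and 1.5e-04). LINC01225 had 0.91 and 1.5, the first with an interval that reached below 0.

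The remaining members of the list were below 2-fold in both conditions. LINC00657, known as NORAD and bound by PUMILIO proteins, had 74 HNF4A against 81 IgG reads at high glucose and 65 against 51 at low glucose, with ratios of -0.28 (-0.75 to 0.20) and 0.32 (-0.23 to 0.88). LINC00152, known as CYTOR, was at -1.22 and -0.18, and MIR22HG and SNHG6 are given above. Of the 7, 1 was at least 2-fold higher at high glucose (LINC01134) and 3 were at low glucose (LINC01134, LINC00261 and LINC01225), against 41.6% and 46.8% of all regions.

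**Figure D5:**
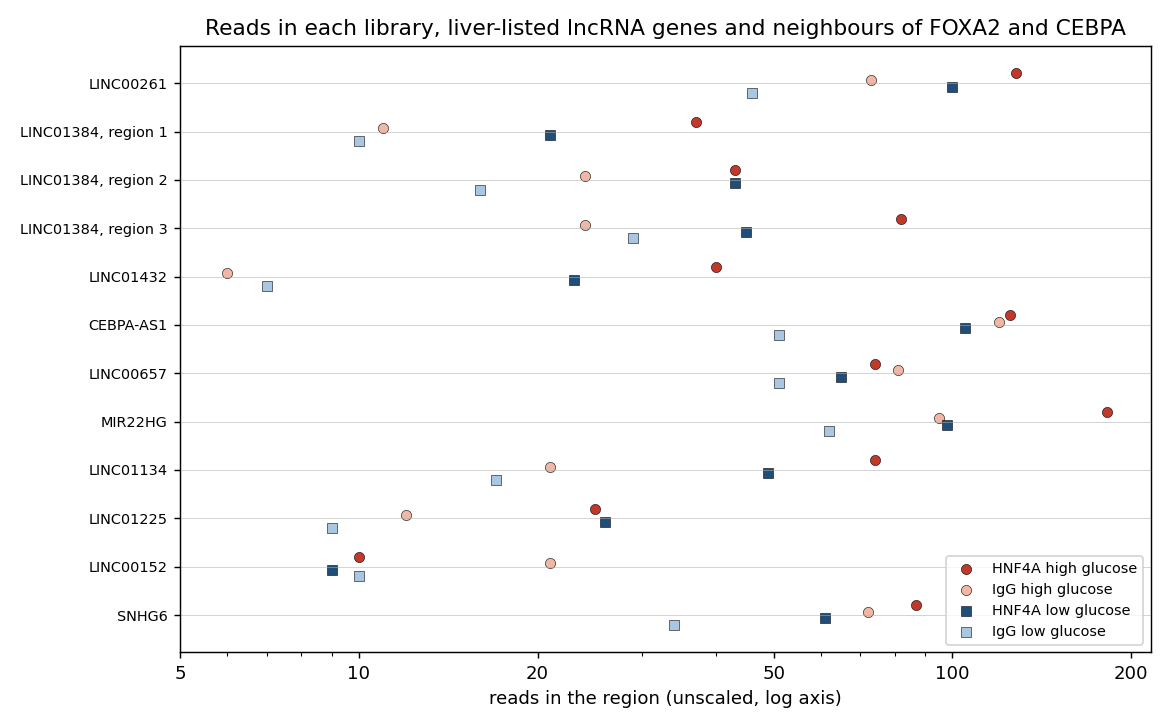
Reads in the region (x axis, unscaled, log scale) in the 4 libraries for the 7 members of the liver list, the other lncRNA neighbours of FOXA2, and CEBPA-AS1 (rows), with HNF4A in dark and IgG in light symbols, circles for high and squares for low glucose. HNF4A lies to the right of IgG in both conditions in most rows, but not in that of LINC00152 in either condition, nor in that of LINC00657 at high glucose.

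LncRNAs of the rule's kinds also lay beside the genes of liver transcription factors. By gene order in RefSeq, 12 of the 221 member genes, with 17 regions, are next to 1 of 19 listed liver factors. Gene order sets no limit on distance, and the share of all genes next to a listed factor was not determined. That list was drawn up after the values were seen. FOXA2, a pioneer factor of endoderm and liver, had 3 such neighbours. LINC01432 had 40 HNF4A and 6 IgG reads at high glucose and 23 and 7 at low glucose, with ratios of 2.59 (1.34 to 4.12) and 1.69 (0.42 to 3.15). LINC01384, also named LNCNEF, had 3 regions with 1.60, 0.70 and 1.63 at high glucose and 1.04, 1.40 and 0.61 at low glucose. LINC00261, given above, completes the group.

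LINC00511 and LINC00673 are neighbours of SOX9, a factor of bile duct cells. The LINC00511 region at chr17:70628075-70628869 had 78 HNF4A and 14 IgG reads at high glucose and 39 and 10 at low glucose, with ratios of 2.33 (1.5 to 3.27) and 1.94 (0.91 to 3.10). Its other region had 1.39 and 1.90. The 3 regions of LINC00673 had 2.06, 1.54 and 1.21 at high glucose and 0.85, 0.67 and 0.23 at low glucose. Their HNF4A reads were 83, 45 and 59 at high glucose and 44, 26 and 31 at low glucose, and all 3 had fewer scaled IgG reads at high than at low glucose.

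Beside CEBPB, LINC01270 had 141 HNF4A and 43 IgG reads at high glucose and 57 and 24 at low glucose. Its ratios over IgG were 1.57 (1.07 to 2.09) and 1.22 (0.51 to 1.97). LINC01272, also named PELATON, had 1.83 and 1.14, and LINC01273 had 0.38 and 0.97. Beside NR5A2, a nuclear receptor of bile acid metabolism, LINC00862 had 1.44 and 2.18 and MIR181A1HG had the values above. LINC01111, beside HNF4G, had 0.99 and 1.56. Over these 17 regions HNF4A was above IgG in all but 1 at high glucose, CEBPA-AS1, and in all at low glucose. Of all regions, 84.2% and 91.5% were above IgG, so these counts lie near the background.

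The antisense members allow a comparison with their sense genes. Of 105 antisense genes, 22 had a sense gene, by name, that was itself closest to a region. Over all 31 pairs of an antisense and a sense region, the gap ran from 4881 to 552208 bp with a median of 79754 bp. The nearest region of the sense gene was higher over IgG than the antisense region in 3 of the 22 at high glucose and in 11 of 22 at low glucose. In most of the 22 pairs that sense region held more reads in the high glucose libraries, and fewer reads went with higher ratios. The part of read depth in these counts was not tested. BSN-AS2, opposite the presynaptic gene BSN, had 86 HNF4A and 17 IgG reads at high glucose and 44 and 16 at low glucose, with 2.19 (1.43 to 3.04) and 1.43 (0.58 to 2.36), against -0.73 and 0.39 at BSN. FAM83A-AS1 had 2.33 and 1.46, against 0.85 and 2.45 at FAM83A. ARRDC1-AS1, with the smallest gap, had 0.31 and 0.70, against -0.21 and 1.72 at ARRDC1.

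Regions closest to member genes whose promoter lies head to head with that of a coding gene, within 1000 bp in RefSeq, were lower over IgG at high glucose. The set was drawn by gene, and the distance of each region from the promoter was not determined. There were 26 such genes with 28 regions. Their median was 0.64 at high and 0.94 at low glucose, against 1.22 and 1.07 over the 167 regions of the 127 other members with a promoter. At least 2-fold higher at high glucose were 8 of the 28 (28.6%), against 96 of the 167 (57.5%). At low glucose 12 of the 28 (42.9%) were, against 91 of the 167 (54.5%). Over all regions the medians were 0.79 and 0.94, and 41.6% and 46.8% were at least 2-fold higher. In the 28 regions the median IgG reads were 27 at high glucose against 19 in the 167, and the median promoter GC content was 70.7% against 54.7%. The part of read depth and base composition in this difference was not tested.

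The glucose comparison of the HNF4A libraries was shifted upward for all regions. The median of HNF4A at high over low glucose was 0.43 over the 283 members and 0.36 over all regions, and 249 of the 283 (88.0%) were above 0, against 81.8% of all regions. For IgG, the background antibody, the medians were 0.44 and 0.51, and 198 of the 283 (70.0%) were above 0, against 77.9% of all regions. Both antibodies thus had more scaled reads at high glucose over these regions. In 175 members (61.8%) both libraries were higher at high glucose, against 64.6% of all regions. HNF4A alone was higher in 74 (26.1%), against 17.2%, IgG alone in 23 (8.13%), against 13.3%, and both were lower in 11 (3.89%), against 4.94%.

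At least 2-fold higher in HNF4A at high than at low glucose were 22 members (background 6.78%), and 1 was at least 2-fold lower, ELMO1-AS1 (background 0.713%). Centred on the median of all regions, 6 members were 2-fold higher and 6 lower in HNF4A, and 17 higher and 28 lower in IgG. These centred counts stand without their shares of all regions, so they are not read as a result about the members. The exact binomial test of the 2 HNF4A libraries called 45 higher (background 13.0%) and none lower, where 14 of all regions were called lower and 2 members had an unadjusted interval below 0. The authors' deposited table gave 14 members a p-value under 0.05 with the higher level at high glucose (background 4.39%). In IgG, 54 members were at least 2-fold higher at high glucose (background 19.4%), 10 at least 2-fold lower (background 3.38%), and 28 were called higher by the binomial test (background 14.3%). The members' shares lay near the background in the HNF4A comparison by fold, and below it in IgG by the binomial test.

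The largest HNF4A differences between glucose levels were in LIMD1-AS1, RNF217-AS1 and LINC00294. LIMD1-AS1 (chr3:45701228-45702022) had 38 HNF4A reads at high glucose against 9 reads at low glucose, and a log2 ratio between them of 1.94 (0.87 to 3.18). RNF217-AS1 had 58 and 17 reads and 1.63 (0.83 to 2.51). LINC00294 had 72 and 22 reads and 1.57 (0.87 to 2.33), with 11 and 12 IgG reads. Over IgG it stood at 2.56 (1.64 to 3.63) in the high glucose pair and at 0.85 (-0.23 to 2.0) in the low glucose pair.

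BBOX1-AS1, opposite the gene of the last enzyme of carnitine synthesis, had 63 and 21 HNF4A reads and 1.45 (0.72 to 2.24), with 24 and 14 IgG reads. JHDM1D-AS1 had 37 and 13 HNF4A reads but was not above IgG in either condition. SBF2-AS1 had 1.36 and 1.32 in its 2 regions. LINC01270, beside CEBPB, had 1.17 (0.72 to 1.64) with the exact binomial test at adjusted p = 1.7e-05. The lowest were ELMO1-AS1 at -1.5 (-3.00 to -0.17), from 7 and 18 reads, SLIT1-AS1 at -0.84, MIR7-3HG and ZNF561-AS1 at -0.79 each, and LINC01446 at -0.70.

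In IgG, LINC00244 had the highest difference, 2.98 (0.90 to 6.15), from 16 reads at high and 2 at low glucose, and fewer than 20 reads in both together. Among members with at least 20, regions of LINC00313 and LINC00936 had 1.72 each, HAS2-AS1 1.70, STX18-AS1 1.64, and BOK-AS1 and PSMD5-AS1 1.57 each. The lowest of these were a region of LINC00273 at -1.60, a region of LINC00824 at -1.24, and DLGAP1-AS2, LIMD1-AS1 and LINC00615 at -1.02 each. DLGAP1-AS2 held 97 HNF4A and 17 IgG reads at high glucose, and 73 HNF4A and 34 IgG reads at low glucose. Its ratio over IgG was 2.37 (1.61 to 3.20) in the high glucose pair and 1.08 (0.47 to 1.71) in the low glucose pair.

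Whether the ratio over IgG differed between the conditions was tested by an exact conditional test on the 4 read numbers, adjusted over 5326 regions, which again compares libraries. It called 3 members higher at high glucose (background 0.582%) and 2 lower (background 0.713%). The median difference of the log2 ratios, high minus low glucose, was 0.06 over the members and -0.15 over all regions. The higher ones were LIMD1-AS1 (2.96, exact conditional test, adjusted p = 0.027), LHFPL3-AS2 (1.40, adjusted p = 0.019) and 1 region of LINC01393 (0.59, adjusted p = 0.028). LHFPL3-AS2 (chr7:104583138-104585111) had 160 HNF4A and 54 IgG reads at high glucose, and 57 HNF4A and 55 IgG reads at low glucose. Its second region, less than 1000 bp on, had 104 HNF4A and 38 IgG reads at high glucose and 63 and 26 at low glucose, ratios of 1.31 and 1.25.

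The 2 lower ones were CEBPA-AS1 (-1.10, exact conditional test, adjusted p = 0.031) and 1 region of LINC00854 (-0.54, adjusted p = 0.045), named after their values were seen. Neither call of the exact conditional test held with raw reads (adjusted p = 0.069 and 0.17) or with centring on the median difference of all regions (adjusted p = 0.079 and 0.21), while the 3 higher ones were called in both. CEBPA-AS1 (chr19:33792190-33795097) starts head to head with CEBPA, a factor of hepatocyte differentiation. It had 125 HNF4A and 120 IgG reads at high glucose, ratio -0.09 (-0.46 to 0.29), and 105 HNF4A and 51 IgG reads at low glucose, ratio 1.02 (0.52 to 1.53). HNF4A reads at high over low glucose differed by 0.12 (-0.27 to 0.50), and the IgG reads by 1.22. LINC00854 (chr17:41399727-41401611) had 357 HNF4A and 471 IgG reads at high glucose and 298 and 293 at low glucose.

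Other lncRNA genes, with names of other forms, were taken from a list of 44, of which 8 had a region, 13 regions in all. NEAT1, the scaffold of paraspeckles, had 176 HNF4A and 65 IgG reads at high glucose and 114 and 47 at low glucose, with 1.29 (0.87 to 1.72) and 1.25 (0.75 to 1.77). MALAT1 had 0.80 (0.29 to 1.31) and 0.61 (-0.02 to 1.26), and the 4 regions of PVT1 had 0.98 to 1.53 and 0.74 to 1.44. HOTTIP had 0.60 and 1.07 and KCNQ1OT1 1.36 and 1.06. As a check of the antibody, APOA1, a known HNF4A target, had 31 HNF4A against 7 IgG reads at high glucose and 28 against 2 at low glucose, ratios of 2.0 (0.79 to 3.43) and 3.78 (1.79 to 6.90). Of 8 genes listed for this check, 2 others had a region. HNF4A itself had 0.64 (-0.11 to 1.41) and 1.02 (0.14 to 1.94), and CYP27A1, an enzyme of bile acid synthesis, had 1.12 (0.57 to 1.70) and 0.48 (-0.14 to 1.12), so 1 interval of each reached below 0.

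Members lay on all chromosomes but 15 and Y. Chromosome 7 held the most, 33 of its 498 regions (6.63%), and chromosome 20 had 23 of 209 (11%), with LINC00656 and the FOXA2 neighbours among them. Chromosome 19, which had 361 regions, held 5 members (1.39%), with a median ratio of -0.09 at high glucose and 0.18 at low glucose.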

How the data were processed

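HNF4A and IgG ChIP-seq libraries of HCCLM3 cells, 1 per group, were compared without replicates. Per the submitters' processing notes, bcl2fastq, Bowtie 1.1.2, MACS, DiffBind and HOMER were used on hg19; no settings are stated. Each of the authors' 3 deposited tables lists the same 5326 regions with log2 levels, their difference (log2 fold), p-value, false discovery rate (FDR) and closest gene. The rule that chose the regions is not stated, and reads of these libraries may have entered it. Starts are printed counted from 1.

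Unlogged levels were whole multiples of 1 step per library, within 0.01, for 100% of values, which gave the reads and the relative sizes: 1.10 and 0.993 for the high glucose HNF4A and IgG libraries, 1 and 0.982 for the low glucose ones. Total depth is unknown. No value lay below 1 read. Log2 ratios carry Clopper-Pearson 95% intervals, which cover counting error only, since PCR copies are not independent molecules. The binomial and conditional tests are exact and 2-sided (scipy 1.17.1, Python 3.11.15). They were run on simulated reads with counting error only, which cannot show how they behave with spread between libraries.

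Named members are the 6 highest and 6 lowest per comparison with at least 20 reads in the pair, all intronic transcripts, microRNA and SNHG hosts, list members, genes with 3 or more regions and antisense genes whose partner has a region. Not every one is given a value, and 1 gene with its antisense partner is not reported here. The members and lists were chosen with earlier results of these data known. All 221 genes matched RefSeq, 189 by symbol and 32 by synonym, used for names, gene order and promoters only. Closeness does not show regulation. Alternatives are other scalings, read minimums, fold thresholds and 1 region per gene.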

Additional observations from a re-analysis of the deposited data

Results flagged for a closer look

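In 5 member regions the HNF4A over IgG ratio differed between high and low glucose by the exact conditional test, adjusted over 5326 regions. The difference is the log2 ratio at high minus that at low glucose. It was 2.96 in LIMD1-AS1, 1.40 in LHFPL3-AS2 and 0.59 in a LINC01393 region, and -1.10 in CEBPA-AS1 and -0.54 in a LINC00854 region. There is 1 library per group, so the test compares libraries. The calls of CEBPA-AS1 and LINC00854 were lost with raw reads (-0.98, adjusted p = 0.069, and -0.42, adjusted p = 0.17, exact conditional test) and with centring (adjusted p = 0.079 and 0.21). The other 3 were called under both settings. The IgG reads were 8 at high and 16 at low glucose in LIMD1-AS1, 54 and 55 in LHFPL3-AS2, 248 and 354 in LINC01393, 120 and 51 in CEBPA-AS1 and 471 and 293 in LINC00854. The HNF4A reads were 38 and 9, 160 and 57, 406 and 355, 125 and 105, and 357 and 298 in the same order. In LHFPL3-AS2 the IgG reads were nearly equal and the HNF4A reads differed, while in CEBPA-AS1 the reverse held. The part of the IgG libraries in these differences was not tested.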

How the results depend on the processing

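No paired analysis was possible because each group has 1 library. The reads of 2 libraries limit each value, and regions with few IgG reads have intervals over several log2 units. Counts are of members at least 2-fold higher, then lower, unless stated, in this order: high glucose HNF4A over IgG (154 and 2), low glucose HNF4A over IgG (152 and 2), then high over low glucose for HNF4A (22 and 1) and for IgG (54 and 10). Centring on the median of all regions gave 65 and 17, 40 and 22, 6 and 6, and 17 and 28. The share higher over IgG was then 23.0% at high glucose, against 17.9% of all regions, and 14.1% at low glucose, against 13.4%. Counts given here without a share of all regions are not read as a result about the members. Centring moved the members' excess over all regions to 5.02 percentage points, from 12.8, at high glucose, and to 0.766, from 6.88, at low glucose. This shift by construction takes away 0.79 and 0.94, the medians of all regions. A 1.5-fold call gave 7, 4 and 6 lower in the first 3, and 101 and 121 higher and 25 lower in the last ones, with an excess of 6.92 points for HNF4A at high over low glucose. A 3-fold call gave 86 and 1, 79 and 0, 2 and 0, and 13 and 3. The share 3-fold higher over IgG was 30.4% at high glucose, against 22.6% of all regions, and 27.9% at low glucose, against 22.6%. Without scaling, 36 were higher in HNF4A at high glucose. A minimum of 20 reads left 5 lower in IgG, and 1 region per gene left 1 lower at low glucose and 6 lower in IgG. The authors' unadjusted p under 0.05 gave 18, 5 and 14 where their FDR gave 0. The difference test called 3 higher and 2 lower; raw reads, and likewise centring, gave 6 and 0, and 1 region per gene gave 1 and 1. Alternatives chosen after seeing the data were the middle set by reads, with 50 and 0, 47 and 1, 8 and 0, and 13 and 2 over fewer regions and an excess of -6.53 points in IgG, and leaving out genes of 3 or more regions, with 1 lower at low glucose. Of the values of named members, 484 of 484 stayed within their intervals without scaling and 322 did with centring, while 162 moved. The cause was not tested in the other settings.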
